A study of Mus musculus with 3 samples.

Results

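The 8 genes described here move iron across liver cell membranes or change its charge so that it can be moved. They are the exporter Slc40a1, the ferroxidases Cp and Heph, the importers Slc39a8, Slc39a14 and Slc11a2, the ferritin receptor Scara5 and the ferrireductase Steap3. The rule names them one by one as membrane iron transporters and their partner enzymes and holds no threshold on measured values, and all 8 were found among the 55421 gene identifiers of each library. Each is given as its level per cell class and library.

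Iron reaches liver cells bound to transferrin, which is taken up with its receptor and releases its iron inside endosomes, or as non-transferrin-bound iron, which enters through membrane carriers. The liver has a single known exporter, ferroportin, the product of Slc40a1, and exported iron is oxidised by ceruloplasmin or hephaestin before transferrin can bind it. Hepcidin, made by hepatocytes from Hamp, binds ferroportin and has it degraded, and iron regulatory proteins bind hairpins in several iron mRNAs, so the RNA level is only part of the control of these proteins.

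The 3 libraries came from 3 wild-type mice, 1 mouse per group, and all 3 mice had eaten an iron-deficient diet of 2 to 6 ppm iron for 1 week. The IDD+HID mouse then ate a high-iron diet, 2% carbonyl iron, for 18 h. The IDD+HTF mouse received 10 mg of holo-transferrin, transferrin loaded with iron, into a vein, and the IDD mouse was the control and stayed on the deficient diet. The time from injection to collection, and the age, sex and strain, were not found in the labels. Livers were digested with collagenase D and pronase, and each library was loaded with a blend of 5% hepatocyte and 95% non-parenchymal suspension, so the number of cells per class follows the mixing as well as the liver. With 1 mouse per group no difference has a replicate check, no p-value is given, and every interval below is a 95% interval that covers counting error only.

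The IDD+HID, IDD+HTF and IDD libraries held 75404660, 55478904 and 34552858 UMIs (unique molecular identifiers, the counted RNA molecules). Cells numbered 3538, 3202 and 1307, with medians of 8596, 4449.5 and 3626 UMIs, and each pair of libraries shared 1 cell barcode. Of the 15 named classes, 6 had at least 50 cells in every library. Sinusoidal endothelial-like cells, the capillary lining of the liver (clusters 1, 2 and 21), numbered 1166, 782 and 334 in IDD+HID, IDD+HTF and IDD, and Kupffer-like cells, the resident macrophages (clusters 4, 5 and 22), numbered 661, 516 and 191. Hepatocyte-like cells (clusters 3, 7 and 8) numbered 259, 1031 and 245, stellate-like cells (cluster 9) 101, 125 and 129, T-like cells (clusters 10 and 16) 253, 132 and 74, and B-like cells (cluster 6) 460, 180 and 90. All 8 sinusoidal endothelial markers had UMIs in the sinusoidal class in each library, as did all 8 Kupffer, all 8 hepatocyte and all 8 stellate markers in the classes of those names. The ending "-like" marks that marker RNAs are the sole basis of a name.

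RNA of other cells was present in every class, so each level is set beside a carried level. This is the CPM (UMIs per 1000000 UMIs of the class) that RNA of 5 source classes would bring, estimated from their markers. Of the 6 classes, stellate-like cells held the largest sum of another class's markers: sinusoidal endothelial markers summed there to 8580, 7994 and 3750 CPM in IDD+HID, IDD+HTF and IDD, and Kupffer markers to 918, 848 and 31.5 CPM. Of the 48 pairs of a gene and a class, 25 lay above the carried level in all 3 libraries with the lower end of their interval, and 12 did so in none. Carried RNA is part of the level seen, so a carried level far above it is too high an estimate. A level at or under the carried one does not show that a class lacks the RNA.

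The transcripts were searched for the hairpin that iron regulatory proteins bind, because it is the RNA element through which cell iron is known to act on ferritin, ferroportin and transferrin receptor mRNAs. The motif was CAGTGN as a loop of 6 bases on an upper stem of 5 base pairs with an unpaired C below it, on the transcript strand only. N could be any base but G, a lower stem needed at least 3 pairs, and G with T counted as a pair. Capitals mark the first 5 loop bases. The sequences come from GENCODE M21 transcripts (GRCm38), each printed 5′ to 3′ on the transcript strand. Shown for comparison are the matching hairpins of the ferritin subunits and 1 of the 4 hairpins of the transferrin receptor that matched this motif.
Slc40a1, 5′ UTR, chr1:45925465-45925493, minus strand: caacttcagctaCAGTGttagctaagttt
Slc11a2, 3′ UTR, chr15:100395152-100395181, minus strand: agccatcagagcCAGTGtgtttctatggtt
Fth1, 5′ UTR, chr19:9982732-9982760, plus strand: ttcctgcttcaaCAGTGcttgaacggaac
Ftl1, 5′ UTR, chr7:45459779-45459807, minus strand: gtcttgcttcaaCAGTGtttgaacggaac
Tfrc, 3′ UTR, chr16:32631219-32631247, plus strand: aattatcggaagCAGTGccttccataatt
Of the 8 genes, 2 held a hairpin, Slc40a1 near the start of its transcript and Slc11a2 near the end of 1 of its transcripts, there with 1 unpaired base in the upper stem. Among 21877 protein-coding genes, 96 (0.439%) held a hairpin with no unpaired base there and 147 (0.672%) held 1 with such a base. A match describes the letters and does not show that a protein binds.

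Slc40a1 (ENSMUSG00000025993.10, chromosome 1, 45908068 to 45926523, minus strand, GRCm38) was highest in Kupffer-like cells in all 3 libraries. It stood there at 2790, 2924 and 2403 CPM in IDD+HID, IDD+HTF and IDD, against carried levels of 31.4, 15.3 and 3.81 CPM. These cells held 78.5%, 88.7% and 86.3% of all the gene's UMIs in named cells of IDD+HID, IDD+HTF and IDD. Macrophages recycle the iron of old red cells and export it through ferroportin. After thinning each cell to 1000 UMIs, a share of 86.5%, 84.2% and 75.5% of Kupffer-like cells had an Slc40a1 UMI. In B-like cells the same share was 1.27% in IDD+HID and 0.45% in IDD+HTF, while none of 90 cells in IDD had a UMI, which allows up to 3.33% of cells with a UMI at this depth and sets no limit on cells that express the gene. Without thinning the shares were 97.4%, 96.1% and 89.5% in Kupffer-like cells and 5.87%, 2.22% and 0% in B-like cells. Median depths were 14119, 12475.5 and 4359 UMIs in Kupffer-like cells and, in B-like cells, 4557, 3600.5 and 4046.5.

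Of the other 5 classes, sinusoidal endothelial-like cells had Slc40a1 furthest above the carried level, as a ratio, in IDD+HID, IDD+HTF and IDD alike. The level was 417 CPM in IDD+HID (4812 UMIs), 253 CPM in IDD+HTF (1378 UMIs) and, in IDD, 151 CPM (193 UMIs), against carried levels of 16.8, 14.99 and 7.24 CPM. The 3 libraries were thus ordered, and their counting intervals did not overlap. The share of these cells with a UMI after thinning was 30.1%, 19.8% and 12.5%, and without thinning 84.0%, 65.1% and 37.4% at median depths of 9923, 6201.5 and 3411 UMIs. In droplets with at most 100 UMIs, which hold free RNA, Slc40a1 stood at 266, 234 and 104 CPM in IDD+HID, IDD+HTF and IDD.

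Stellate-like cells store vitamin A and wrap the sinusoids. Slc40a1 stood in them at 466, 408 and 219 CPM in IDD+HID, IDD+HTF and IDD, against carried levels of 341, 237 and 36.7 CPM. Hepatocyte-like cells had 79.9, 50.1 and 25.6 CPM, against 72.7, 56.3 and 43.2 CPM of carried RNA. In hepatocyte-like cells the lower end of the exporter's interval was thus not above the carried level in any library. The carried estimate was above the level seen in IDD+HTF and IDD, so it can be too high in these cells. These values do not show that hepatocyte-like cells lack Slc40a1 RNA of their own. T-like and B-like cells were likewise at or under the carried level, with 40.5, 15.6 and 0 CPM and with 12.9, 5.71 and 0 CPM.

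Among the smaller classes, neutrophil-like cells had Slc40a1 at 485, 674 and 417 CPM in IDD+HID, IDD+HTF and IDD. These rest on 51, 30 and 15 UMIs in 33, 16 and 14 cells, and the carried levels were 25.6, 21.7 and 4.71 CPM. Conventional dendritic-like cells had 244, 589 and 169 CPM, against carried levels of 276, 693 and 90.1 CPM. Their level was thus under the carried one in IDD+HID and IDD+HTF.

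**Figure D1:**
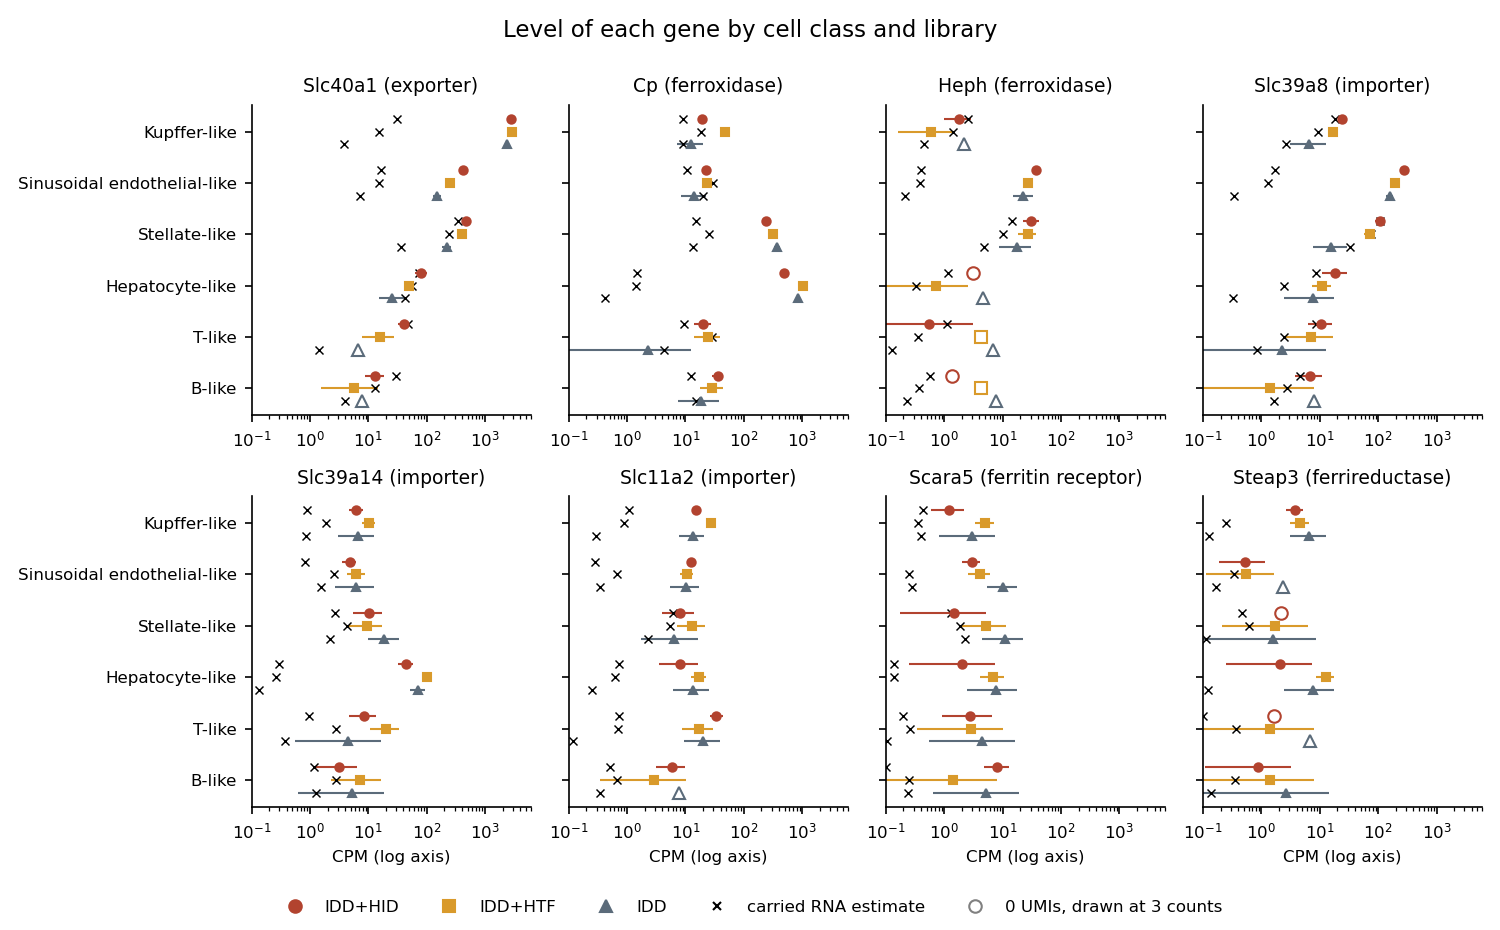
CPM of each gene (log axis) in the 6 classes with at least 50 cells per library: points are the IDD+HID, IDD+HTF and IDD libraries with exact Poisson 95% intervals, crosses are the carried RNA estimate where it is at least 0.1 CPM, and open symbols mark 0 UMIs drawn at 3 counts. Slc40a1 in Kupffer-like cells and Slc39a8 in sinusoidal endothelial-like cells lie far right of their crosses, whereas Slc40a1 in hepatocyte-like cells lies close to its crosses in IDD+HID and IDD+HTF and left of it in IDD (25.6 against 43.2 CPM).

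Cp (ENSMUSG00000003617.16, chromosome 3, 19957054 to 20009145, plus strand) encodes ceruloplasmin, the copper ferroxidase that hepatocytes secrete into plasma and that also occurs anchored to membranes. Of the 6 classes it was highest in hepatocyte-like cells in all 3 libraries, at 481, 1023 and 848 CPM in IDD+HID, IDD+HTF and IDD. The carried level there was at most 1.49 CPM. Stellate-like cells came next in every library, with 241, 311 and 370 CPM against carried levels of 14.9, 25.8 and 13.6 CPM. A UMI of Cp was seen in 77.2%, 74.4% and 66.7% of stellate-like cells, and in 23.4%, 27.0% and 28.1% after thinning. Hepatocyte markers in these cells summed to 840, 680 and 688 CPM, and the level of Cp was thus far above what they would carry. The share of B-like cells with a Cp UMI was 3.34%, 3.44% and 1.63% after thinning. Cp overlaps Hps3 on the opposite strand, and no source used here says whether the counting used strand.

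Cholangiocyte-like cells, which line the bile ducts, had Cp at 4128, 3837 and 2468 CPM in IDD+HID, IDD+HTF and IDD. Only 14, 9 and 6 cells lie behind these values, but they gave 1852, 326 and 156 UMIs, and the carried levels were 41.1, 192 and 99.5 CPM. All of these cells had a Cp UMI. Smooth muscle or portal fibroblast-like cells had 156, 227 and 219 CPM, against carried levels of 92.1, 175 and 145 CPM. Kupffer-like cells had 19.2, 47.4 and 12.5 CPM against carried levels of 9.21, 18.5 and 8.96 CPM. Sinusoidal endothelial-like cells had 22.7, 23.7 and 14.1 CPM against 10.6, 29.2 and 19.7 CPM, so only in IDD+HID was the level over the carried one.

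Heph (ENSMUSG00000031209.14, chromosome X, 96455359 to 96574485, plus strand) encodes hephaestin, the membrane ferroxidase best known from the gut, where it works beside ferroportin. Its RNA lay in sinusoidal endothelial-like and stellate-like cells and was close to absent from the other 4 classes. Sinusoidal endothelial-like cells had 36.9, 26.6 and 22.7 CPM in IDD+HID, IDD+HTF and IDD, from 426, 145 and 29 UMIs, with carried levels of at most 0.405 CPM. They held 76.8%, 71.1% and 69.05% of the gene's UMIs in named cells. Stellate-like cells had 31.0, 26.7 and 17.3 CPM, against carried levels of 14.6, 10.0 and 4.74 CPM. The order of these classes could not be told in any library, since their intervals overlapped. In hepatocyte-like cells 0, 2 and 0 UMIs of Heph were counted in IDD+HID, IDD+HTF and IDD, and in Kupffer-like cells 16, 4 and 0. Vascular endothelial-like cells had 31.9, 23.1 and 7.13 CPM from 44, 11 and 1 UMIs, against carried levels of 22.7, 12.5 and 10.2 CPM. Within the 6 classes Cp was thus highest in hepatocyte-like and then stellate-like cells, and Heph in sinusoidal endothelial-like and stellate-like cells. Heph overlaps Rpl17-ps8 and Gm14935 on its own strand, so reads could be shared with them.

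Slc39a8 (ENSMUSG00000053897.15, chromosome 3, 135825279 to 135888572, plus strand) encodes ZIP8, a membrane carrier of zinc, manganese and non-transferrin-bound iron. Of the 6 classes it was highest in sinusoidal endothelial-like cells in all 3 libraries, at 273, 195 and 158 CPM in IDD+HID, IDD+HTF and IDD, from 3151, 1060 and 202 UMIs. The carried level was at most 1.74 CPM, and these cells held 76.0%, 73.4% and 71.1% of the gene's UMIs in named cells. The share of these cells with a UMI after thinning was 22.8%, 15.2% and 12.9%. In B-like cells it was 0.588% and 0.203% in IDD+HID and IDD+HTF, with 0 of 90 cells in IDD. Without thinning it was 80.0%, 54.0% and 35.0% in sinusoidal endothelial-like cells and 2.61%, 0.556% and 0% in B-like cells. Gm43429 and Gm43428 overlap Slc39a8 on its strand, and reads shared with them cannot be told apart.

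Stellate-like cells had Slc39a8 at 106, 71.6 and 15.7 CPM, against carried levels of 109, 74.1 and 33.1 CPM. The level was thus under the carried one in IDD+HID, IDD+HTF and IDD. The estimate exceeded all the Slc39a8 RNA seen, most so in IDD, and does not show that stellate-like cells lack it. Kupffer-like cells had 23.9, 16.9 and 6.62 CPM, against carried levels of 18.4, 9.17 and 2.63 CPM. Cluster 0, in which mesothelial markers led and lymphatic endothelial markers came next, had 437, 384 and 233 CPM in 51, 25 and 24 cells, above the sinusoidal endothelial-like level in each library. Finer clustering split it, and Slc39a8 then stood at 594, 570 and 565 CPM in mesothelial-like cells (24, 8 and 3 cells) and at 180, 166 and 104 CPM in lymphatic endothelial-like cells (24, 24 and 26 cells).

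Slc39a14 (ENSMUSG00000022094.15, chromosome 14, 70303469 to 70351425, minus strand) encodes ZIP14, the main carrier of non-transferrin-bound iron into mouse hepatocytes. Among the 6 classes it was highest in hepatocyte-like cells in all 3 libraries, at 44.0, 99.9 and 70.9 CPM in IDD+HID, IDD+HTF and IDD, from 43, 279 and 47 UMIs. The carried level was at most 0.293 CPM. In the other 5 classes the level stayed between 3.11 and 19.8 CPM, and neighbours in the order of their medians had overlapping intervals in each library. Plasmacytoid dendritic-like cells had 59.8, 53.4 and 48.7 CPM in IDD+HID, IDD+HTF and IDD, from 87, 35 and 10 UMIs in 123, 72 and 23 cells, against carried levels of at most 2.11 CPM. In IDD+HID this was above the 44.0 CPM of hepatocyte-like cells, as were 14 cholangiocyte-like cells with 55.7 CPM from 25 UMIs. Within the 6 classes the ZIP carriers lay apart: Slc39a14 in hepatocyte-like cells, where Slc39a8 had 18.4, 10.7 and 7.54 CPM, and Slc39a8 in sinusoidal endothelial-like cells, where Slc39a14 had 4.77, 6.25 and 6.25 CPM.

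Slc11a2 (ENSMUSG00000023030.16, chromosome 15, 100387898 to 100425072, minus strand) encodes DMT1, which carries ferrous iron across the gut surface and out of endosomes. Its levels were low everywhere, and no class stood apart in all 3 libraries. T-like cells had 33.8, 16.97 and 20.3 CPM in IDD+HID, IDD+HTF and IDD, and Kupffer-like cells had 15.2, 27.1 and 13.2 CPM. Hepatocyte-like cells had 8.20, 16.8 and 13.6 CPM and sinusoidal endothelial-like cells 12.6, 10.5 and 10.2 CPM. Carried levels were at most 1.09 CPM in these 4 classes. Slc11a2 overlaps Gm5475 on the opposite strand.

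Scara5 (ENSMUSG00000022032.14, chromosome 14, 65666403 to 65764826, plus strand), a scavenger receptor that takes up ferritin, stayed at or under 11.02 CPM in the 6 classes. In sinusoidal endothelial-like cells it stood at 2.95, 4.04 and 10.2 CPM in IDD+HID, IDD+HTF and IDD, against carried levels of at most 0.280 CPM. Its highest levels were in the smooth muscle or portal fibroblast-like cells, a class of 13, 10 and 6 cells, with 80.4, 319 and 0 CPM in IDD+HID, IDD+HTF and IDD. These are 16, 45 and 0 UMIs, and 3 counts in IDD would have been 59.8 CPM. Steap3 (ENSMUSG00000026389.16, chromosome 1, 120190757 to 120272705, minus strand), the reductase that turns ferric into ferrous iron in endosomes, was likewise sparse. Hepatocyte-like cells had 2.05, 12.5 and 7.54 CPM from 2, 35 and 5 UMIs, and Kupffer-like cells had 3.73, 4.52 and 6.62 CPM from 34, 30 and 9 UMIs. In smooth muscle or portal fibroblast-like cells Steap3 stood at 95.5, 149 and 59.8 CPM, from 19, 21 and 3 UMIs.

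**Figure D2:**
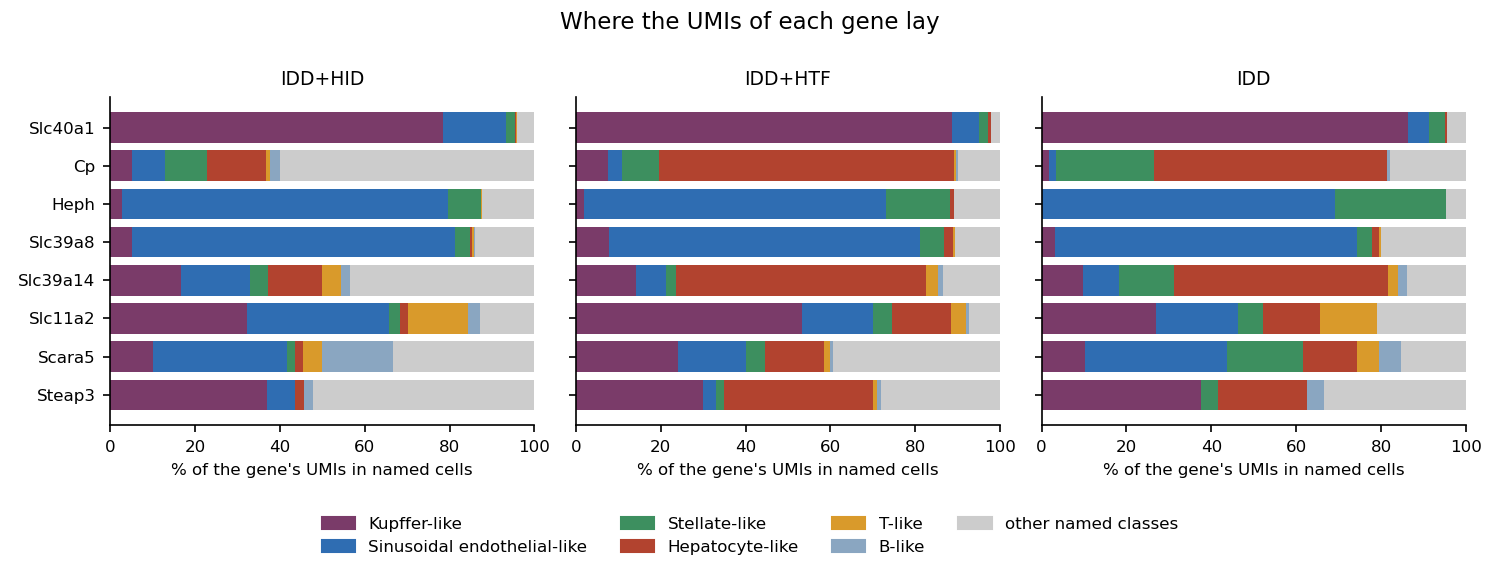
Share of each gene's UMIs in named cells (% on the x axis) by class, in the IDD+HID, IDD+HTF and IDD libraries. Kupffer-like cells take 78.5% to 88.7% of Slc40a1 and sinusoidal endothelial-like cells 71.1% to 76.0% of Slc39a8, while 14 cholangiocyte-like cells hold 54.7% of the Cp UMIs in IDD+HID.

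Setting IDD+HID beside IDD addresses which of these genes differ after 18 h of dietary iron, and the title of the series names non-transferrin-bound iron. The clearest difference was in the sinusoidal endothelial-like cells, where Slc40a1 was 2.77-fold higher in IDD+HID than in IDD (2.39 to 3.21), Slc39a8 was 1.73-fold higher (1.501 to 2.005) and Heph was 1.63-fold higher (1.12 to 2.46). In Kupffer-like cells Slc40a1 was 1.16-fold higher (1.12 to 1.20), short of the 1.5-fold used as a rule of size. In hepatocyte-like cells Cp stood at 0.57 and Slc39a14 at 0.62 of their levels in IDD (0.50 to 0.64 and 0.40 to 0.96), but not within clusters of these cells.

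A gene in a class was called measured where the compared libraries held 50 or more of its UMIs in sum. Over the 6 classes 21 pairs of a gene and a class were measured, of which 13 were at least 1.5-fold higher in IDD+HID and 3 at least 1.5-fold lower. Among all measured genes of these classes 21.4% of pairs were as much higher and 12.8% as much lower. Of the 13 higher pairs, 9 had an interval apart from 1, and 5 of these also had both levels above the carried one. These 5 were Slc40a1 in sinusoidal endothelial-like and stellate-like cells, Slc39a8 in sinusoidal endothelial-like and Kupffer-like cells, and Heph in sinusoidal endothelial-like cells. With the carried level subtracted, Slc40a1 in stellate-like cells stood at 0.69-fold and Slc39a8 in Kupffer-like cells at 1.39-fold. In sinusoidal endothelial-like cells Slc40a1 then stood at 2.79-fold, Slc39a8 at 1.72-fold and Heph at 1.63-fold.

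In sinusoidal endothelial-like cells 6 of the genes were measured, 4 were higher and 0 lower, against 14.2% of 12091 genes higher and 19.8% lower in the same cells. The fourth was Cp, 1.61-fold higher (1.00 to 2.77), whose level in IDD was under the carried one. Slc40a1, Slc39a8 and Heph were also higher by CPM within each of the main clusters. Slc40a1 was 2.73-fold higher in cluster 1 (481 and 176 CPM in IDD+HID and IDD) and 3.64-fold higher in cluster 2 (384 and 105 CPM). Slc39a8 was 1.74-fold higher in each, and Heph 1.72-fold in cluster 1 and 1.67-fold in cluster 2, there from 9 UMIs in IDD with an interval that spans 1 (0.87 to 3.70). Clusters 1 and 2 held 39.5% and 58.0% of the class in IDD+HID, against 70.7% and 29.04% in IDD. Slc11a2 at 1.24-fold (0.70 to 2.38) and Slc39a14 at 0.76-fold (0.36 to 1.85) were not past the rule of size, and their intervals reach past it in at least 1 direction. Not measured were Scara5, at 0.29-fold (0.15 to 0.60) from 34 and 13 UMIs in IDD+HID and IDD, and Steap3, with 6 and 0 UMIs.

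In Kupffer-like cells 5 genes were measured, 2 were higher and 0 lower, against 17.6% of genes higher and 8.14% lower. Slc40a1 differed little in cluster 4 at 1.18-fold (1.13 to 1.22), by 1.54-fold in cluster 22 (1.34 to 1.79) and by 2.58-fold in cluster 5 (1.82 to 3.77). Cluster 22 held 45.4% of the class in IDD+HID and 6.81% in IDD. Cluster 5 was shallow, with a median of 2081 UMIs. The higher genes were Slc39a8, 3.61-fold (1.87 to 8.002), and Cp, 1.53-fold (0.93 to 2.69). Sinusoidal endothelial markers in Kupffer-like cells summed to 1366 CPM in IDD+HID and 283 CPM in IDD. Slc39a8 was 1.85 higher on the log2 scale as counted, but 0.47 higher with the carried level subtracted and 0.45 higher in cells of at least 2000 UMIs.

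In hepatocyte-like cells 3 genes were measured, 1 was higher and 2 lower, against 64.3% of genes higher and 12.1% lower. The median gene was 0.96 higher on the log2 scale in IDD+HID, so CPM values of hepatocyte-like cells are read beside that shift. The higher gene was Slc40a1, 3.12-fold (1.83 to 5.62), not above its carried level in either library by the lower end of its interval. The lower genes, Cp and Slc39a14, were not lower within any cluster by CPM, though of these ratios only that of Cp in cluster 7 had an interval apart from 1 among those with at least 50 UMIs. Cp stood at 1642 and 1491 CPM in cluster 3 of IDD+HID and IDD, at 785 and 592 CPM in cluster 8 and at 223 and 124 CPM in cluster 7. Slc39a14 stood at 157 and 119 CPM in cluster 3, at 129 and 62.3 CPM in cluster 8 and at 13.3 and 5.40 CPM in cluster 7, from as few as 1 UMI in cluster 7 of IDD.

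Cluster 7, where both genes were low, held 66.8% of the hepatocyte-like cells in IDD+HID, 19.1% in IDD+HTF and 23.7% in IDD. With TMM scaling, which takes out most of the shift of the median gene, Cp stood at 0.31 and Slc39a14 at 0.33 of the IDD level. Without cluster 7, Cp was 0.25 and Slc39a14 0.61 higher on the log2 scale in IDD+HID than in IDD. The clusters also differed in RNA make-up: mitochondrial and ribosomal RNA genes and repeats took 6.49% of the UMIs of cluster 7 in IDD+HID and 7.90% in IDD, but 37.6% and 54.2% in cluster 8. Malat1, an RNA kept in the nucleus, stood at 307, 1220 and 4554 CPM in clusters 3, 7 and 8 of IDD+HID and at 123, 16.2 and 46.7 CPM in those of IDD, against 13459 and 22568 CPM in cluster 1 of the sinusoidal endothelial-like cells. The part of this in the hepatocyte values was not tested.

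In stellate-like cells 4 genes were measured, 3 were higher and 1 lower, against 30.9% of genes higher and 15.7% lower. Slc40a1 was 2.13-fold higher (1.77 to 2.58), Slc39a8 6.73-fold higher (3.56 to 14.3) and Heph 1.79-fold higher (0.91 to 3.85). With the carried level subtracted, Slc40a1 was 0.55 lower on the log2 scale, so its direction in stellate-like cells turned. Slc39a8 was under the carried level in both libraries, so both its subtracted levels were held at a floor of 3 counts. Its value of -1.13 on the log2 scale thus follows the depth of the class and gives no direction. Cp stood at 0.65 of its IDD level (0.55 to 0.77) and kept its direction under every alternative run, although as a mean over cells it was 0.36 lower on the log2 scale, short of 1.5-fold.

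The remaining higher pairs were in lymphocytes and were small in counts. Slc40a1 in T-like cells had 73 UMIs in IDD+HID and 0 in IDD, at least 5.99-fold higher against a floor of 3 counts in the IDD library. The carried level in IDD+HID was 47.6 CPM, over the 40.5 CPM seen. With the carried level subtracted, both libraries were held at the floor of 3 counts. The resulting -2.02 on the log2 scale thus follows the depth of the class and gives no direction. Slc11a2 in T-like cells was 1.67-fold higher (0.82 to 3.82) and Cp in B-like cells 1.95-fold higher (0.90 to 5.00).

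**Figure D3:**
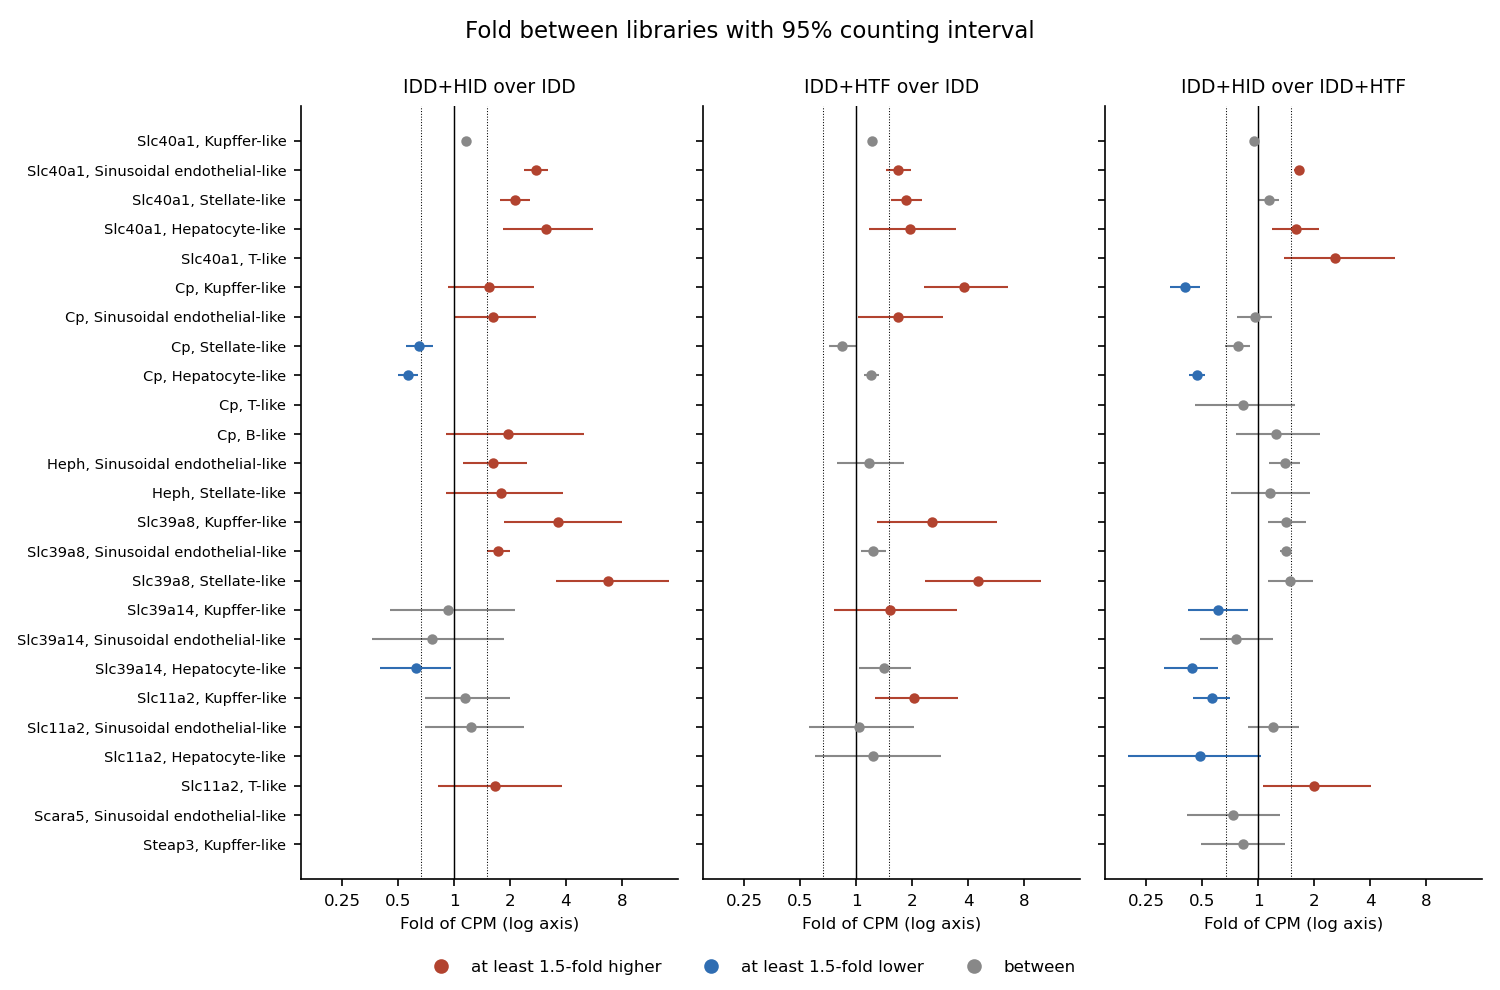
Fold of CPM (log axis) with its 95% counting interval for each gene and class with at least 50 UMIs in the pair, with dotted lines at 1.5-fold; Slc40a1 in T-like cells is not drawn for IDD+HID over IDD, where IDD had 0 UMIs. Slc40a1 in sinusoidal endothelial-like cells is past 1.5-fold in each panel, at 2.77-fold for IDD+HID over IDD, 1.68-fold for IDD+HTF over IDD and 1.65-fold for IDD+HID over IDD+HTF.

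Iron given on transferrin is addressed by IDD+HTF against IDD. In sinusoidal endothelial-like cells Slc40a1 was 1.68-fold higher in IDD+HTF than in IDD (1.44 to 1.96), while Slc39a8 at 1.23-fold (1.06 to 1.44) and Heph at 1.18-fold (0.79 to 1.82) were not past 1.5-fold. In Kupffer-like cells Slc40a1 was 1.22-fold higher (1.17 to 1.26). Hepatocyte-like cells had Cp 1.21-fold (1.10 to 1.32) and Slc39a14 1.41-fold (1.03 to 1.96) higher, both short of 1.5-fold. This comparison and the last share the IDD library, so an error in that library would enter both.

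Over the 6 classes 17 pairs were measured, 9 were higher in IDD+HTF and 0 lower, against 14.2% of all pairs of a gene and a class higher and 9.19% lower. IDD+HTF is the deeper library here, and with no minimum of UMIs 25 pairs were higher and 6 lower. Intervals of 8 of the 9 measured higher pairs were apart from 1, and 4 of these had both levels above the carried one. They were Slc40a1 in sinusoidal endothelial-like and stellate-like cells and Slc11a2 and Slc39a8 in Kupffer-like cells. With the carried level subtracted, these pairs stood in that order at 1.66-fold, 0.94-fold, 2.02-fold and 1.93-fold. In sinusoidal endothelial-like cells 2 of 5 genes were higher and 0 lower, against 9.84% of genes higher and 9.99% lower. Within clusters, Slc40a1 was 1.68-fold higher in cluster 1 (296 and 176 CPM in IDD+HTF and IDD) and 2.19-fold higher in cluster 2 (231 and 105 CPM). Cp was 1.69-fold higher (1.02 to 2.93) but under the carried level in both libraries. Not measured in these cells were Scara5, at 0.40-fold (0.19 to 0.86) from 22 and 13 UMIs in IDD+HTF and IDD, Slc39a14 and Steap3. Slc39a14 stood at 1.00-fold (0.45 to 2.50), and Steap3 had 3 and 0 UMIs.

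In Kupffer-like cells 4 of 5 genes were higher and 0 lower, against 14.2% of genes higher and 5.43% lower. They were Cp, 3.79-fold (2.33 to 6.59), Slc39a8, 2.55-fold (1.29 to 5.71), Slc11a2, 2.05-fold (1.26 to 3.53), and Slc39a14, 1.52-fold (0.76 to 3.47). Of these, Slc11a2 had 27.1 CPM in IDD+HTF, with 13.2 CPM in IDD, against carried levels of 0.871 and 0.295 CPM. The interval of Slc39a14 spans 1. Hepatocyte markers in these cells summed to 658 and 403 CPM in IDD+HTF and IDD, and sinusoidal endothelial markers to 912 and 283 CPM.

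In hepatocyte-like cells 1 of 4 genes was higher and 0 lower, against 18.9% of genes higher and 14.1% lower. It was Slc40a1, 1.95-fold (1.18 to 3.45), with 50.1 and 25.6 CPM in IDD+HTF and IDD and carried levels of 56.3 and 43.2 CPM. In stellate-like cells 2 of 3 genes were higher and 0 lower, against 22.7% of genes higher and 10.3% lower. They were Slc39a8, 4.55-fold (2.35 to 9.84), and Slc40a1, 1.87-fold (1.54 to 2.27). After subtraction of the carried level Slc40a1 was 0.09 lower on the log2 scale. Slc39a8 was under the carried level in both libraries. Its value of -0.87 thus compares the floor of 3 counts in each library and gives no direction.

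The comparison of IDD+HID with IDD+HTF sets the sources of iron side by side. They also differ in dose and route, which cannot be told apart from the form of iron, and the time since injection is not known. Slc40a1 in sinusoidal endothelial-like cells was 1.65-fold higher in IDD+HID than in IDD+HTF (1.55 to 1.75), by 1.62-fold in cluster 1 and 1.66-fold in cluster 2. Slc39a8 at 1.40-fold (1.31 to 1.504) and Heph at 1.39-fold (1.14 to 1.69) were higher but not past 1.5-fold. In Kupffer-like cells Slc40a1 was 0.95-fold (0.94 to 0.97).

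Over the 6 classes 25 pairs were measured, 4 were higher in IDD+HID and 6 lower, against 13.3% of all pairs higher and 8.99% lower. With no minimum of UMIs 11 pairs were higher and 17 lower. The 4 were Slc40a1 in sinusoidal endothelial-like, hepatocyte-like and T-like cells and Slc11a2 in T-like cells, 1.99-fold (1.06 to 4.07). The 6 were Cp, Slc39a14 and Slc11a2 in both hepatocyte-like and Kupffer-like cells. In hepatocyte-like cells Cp stood at 0.47 of its IDD+HTF level (0.43 to 0.52), Slc39a14 at 0.44 (0.31 to 0.61) and Slc11a2 at 0.49 (0.20 to 1.04). With TMM scaling Cp stood at 0.25 and Slc39a14 at 0.24. Without cluster 7, Cp was 0.14, Slc39a14 0.26 and Slc11a2 0.39 higher on the log2 scale. The remaining clusters 3 and 8 held 52 and 34 cells in IDD+HID and 305 and 529 in IDD+HTF. Within them Cp was 0.94-fold (0.81 to 1.07) and 1.05-fold (0.79 to 1.36). Slc39a14 was 1.17-fold (0.72 to 1.83) and 1.15-fold (0.54 to 2.17), so each of these intervals spans 1. The median gene of hepatocyte-like cells was 0.94 higher, and with TMM scaling, which takes most of that shift away, Slc40a1 in hepatocyte-like cells was 0.23 lower, against 0.67 higher by CPM. In Kupffer-like cells Cp stood at 0.40 of its IDD+HTF level (0.33 to 0.49), Slc11a2 at 0.56 (0.45 to 0.71) and Slc39a14 at 0.61 (0.42 to 0.88).

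**Figure D4:**
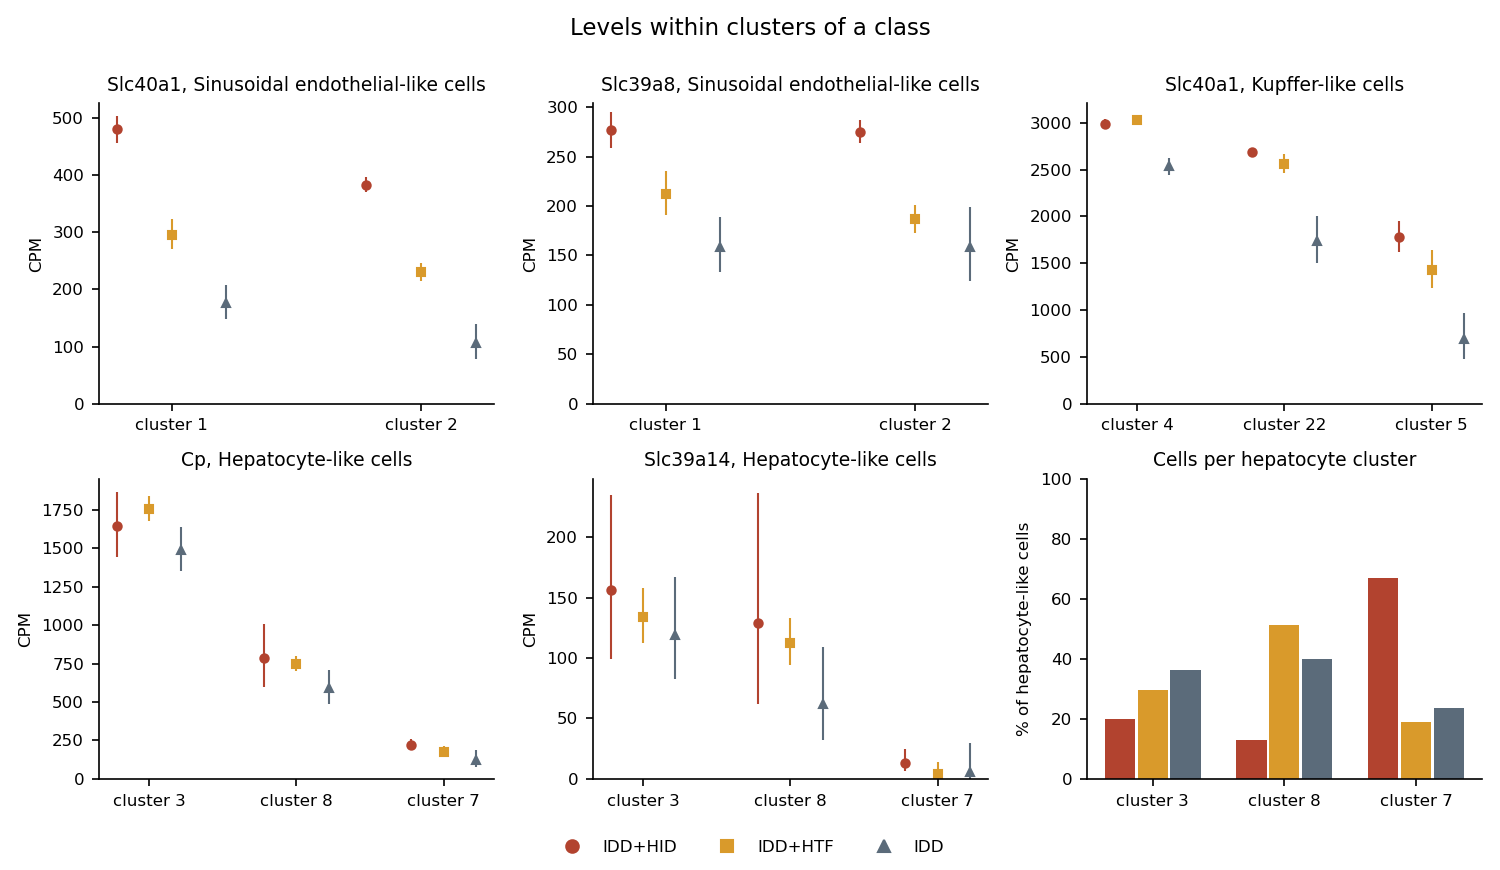
CPM with 95% Poisson intervals of 4 genes within the clusters of a class, and the share of hepatocyte-like cells per cluster (%), in IDD+HID, IDD+HTF and IDD. Slc40a1 follows the same order of libraries in clusters 1 and 2 of the sinusoidal endothelial-like cells, and Cp and Slc39a14 are low in cluster 7, which holds 66.8% of hepatocyte-like cells in IDD+HID.

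The other iron genes were read from a list of 46 names, 45 of them found, that covers transferrin uptake, reduction, storage, heme iron, mitochondrial import and regulators. In sinusoidal endothelial-like cells 35 were measured between IDD+HID and IDD, 8 were higher and 2 lower, beside 14.2% and 19.8% of all genes, and their median log2 ratio was 0.06 against -0.01 for all genes. The higher ones included the ferritin subunits Ftl1, 3.47-fold (3.27 to 3.70), and Fth1, 1.96-fold (1.80 to 2.14). Hmox1, which opens heme and frees its iron, stood at 157 CPM in IDD+HID and 32.8 CPM in IDD, 4.79-fold higher (3.53 to 6.67), against carried levels of 5.02 and 2.21 CPM and 82.4 and 43.5 CPM in droplets of at most 100 UMIs. Cybrd1, a surface ferrireductase, stood at 7.89 and 19.5 CPM, 0.40-fold (0.26 to 0.66). Tfr2, a sensor of iron-loaded transferrin, was 0.51-fold with an interval of 0.24 to 1.18. Hamp stood at 32.6 and 9.37 CPM in these cells, under carried levels of 61.8 and 13.2 CPM.

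In Kupffer-like cells 33 were measured, 9 were higher and 2 lower, beside 17.6% and 8.14% of all genes, with a median log2 ratio of 0.16 against 0.13 for all genes. Tfrc, the transferrin receptor, stood at 40.3 CPM in IDD+HID and 86.1 CPM in IDD, 0.47-fold (0.38 to 0.58). Hpx, Hp, Hamp and Epas1 were also among the 5 largest differences, at 3.03-fold, 1.79-fold, 4.68-fold and 2.88-fold. Their IDD levels were between 3.68 and 17.7 CPM, and Hamp and Epas1 lay under the carried level in IDD+HID. In IDD the levels of Hpx (11.8 CPM), Hp (17.7 CPM) and Hamp (3.68 CPM) lay under carried levels of 28.6, 25.1 and 5.65 CPM.

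In hepatocyte-like cells 15 were measured, 9 were higher and 1 lower, beside 64.3% and 12.1% of all genes, with a median log2 ratio of 0.80 against 0.96 for all genes. The largest were Hamp2, a second hepcidin gene of the mouse, 10.2-fold (6.46 to 16.9), and Hamp, 5.50-fold (5.00 to 6.06), at 4009 CPM in IDD+HID and 729 CPM in IDD. Ftl1 followed at 2.60-fold, the iron chaperone Pcbp1 at 2.11-fold and Aco1, which encodes iron regulatory protein 1, at 2.00-fold. The share of cluster 7 and the shift of the median gene stand beside these values too, and their part was not tested. In stellate-like cells 25 were measured, 9 were higher and 3 lower, beside 30.9% and 15.7% of all genes, with a median log2 ratio of 0.29 against 0.18. Of their 5 largest differences, Slc25a37 lay at its carried level in IDD+HID, with 57.7 CPM against 54.9 CPM. Hmox1 stood at 158 and 4.72 CPM in IDD+HID and IDD with carried levels of 112 and 9.40 CPM, and Ftl1 at 2012 and 496 CPM with carried levels of 1757 and 220 CPM. Fth1 was 3.32-fold and Nfe2l2, a regulator of the oxidative stress response, 3.08-fold higher.

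Between IDD+HTF and IDD, 5 of 32 list genes were higher and 3 lower in sinusoidal endothelial-like cells, where 9.84% and 9.99% of all genes were. In Kupffer-like cells 4 of 31 were higher and 0 lower, beside 14.2% and 5.43% of all genes. In hepatocyte-like cells 3 of 19 were higher and 0 lower, beside 18.9% and 14.1%, and in stellate-like cells 9 of 23 higher and 1 lower, beside 22.7% and 10.3%. Hamp in hepatocyte-like cells was 0.71-fold in IDD+HTF (0.64 to 0.79), with 519 and 729 CPM in IDD+HTF and IDD. Hamp was among the top 10 genes of cluster 7 and not of clusters 3 and 8. Cluster 7 held 19.0% of the UMIs of these cells in IDD+HTF and 27.9% in IDD, and its part in the Hamp value was not tested. Tfrc in Kupffer-like cells was 0.78-fold (0.64 to 0.97).

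The pattern of each gene over 18 sums, 6 classes in 3 libraries, was set beside that of 7379 genes by Pearson's r of log2(CPM + 20). The sums share libraries and depth, and r is a description. For Slc39a8 the most alike genes were Nostrin, Dpysl3 and Bmp6, with r of 0.99 each, and for Slc40a1 they were Hfe, St3gal5 and Pde8a, with r of 0.98 each. For Slc39a14 they were C1rl, Gpt and F9 (0.98, 0.97 and 0.96), and for Cp they were Fxyd1, Gcgr and Clu (each 0.97). For Heph they were Gja4, Npdc1 and Ppic (0.99 each), although Heph itself was too low for the filter set on the compared genes, as were Slc11a2, Steap3 and Scara5. The most alike to those 3 were led by Id2 (0.78), Zdhhc9 (0.92) and AA474408 (0.76). Among the 28 pairs of the 8 genes the highest r was 0.91, between Slc39a8 and Heph, followed by 0.83 between Slc39a14 and Cp.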

How the data were processed

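The deposited values are raw UMI counts per barcode and gene, with no normalization and every barcode kept, per the file headers and the values. GRCm38 and Seurat 4 stand in the submitters' processing notes, with aligner and counter not given in the sources used here. The 8 genes and the lists were chosen with earlier results of these data known. Symbols came from GENCODE M21.

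Barcodes with 1000 or more UMIs, 300 or more genes and no more than 20% of UMIs from mitochondria were kept as cells. Scrublet (scanpy 1.11.5) called 0.197%, 0.187% and 2.02% of barcodes in IDD+HID, IDD+HTF and IDD as doublets, which were removed. Under 0.5% the caller has not worked, so doublets remain. Leiden clustering (igraph 0.11.9, resolution 1, 2000 variable genes without the iron genes, 30 components, 15 neighbours, seed 1) gave 25 clusters. These were named from 20 marker lists by a mean log2 ratio of at least 1 (pseudocount 20 CPM), a lead of 0.5 over the next list, at least 3 markers at 20 CPM and the top 10 genes. The profiles of the clusters were known when these limits were chosen. Unnamed clusters held 40, 138 and 62 cells.

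Counts were summed per class and library and given as CPM with exact Poisson 95% intervals. Folds carry exact conditional binomial intervals. Shares thinned to 1000 UMIs are expectations over all draws. The carried level sums, over 5 source classes (hepatocyte, sinusoidal endothelial, Kupffer, stellate and B), the source's CPM times the ratio of its marker sum in the class to that in the source. A gene's leading class is the one with the highest median CPM. Named genes were the 8 genes, up to 5 list genes with the largest log2 ratio between IDD+HID and IDD in each of 4 classes, and the 3 genes most alike (at least 200 UMIs and 50 CPM in a class). Examples from the list beyond these (Fth1 in sinusoidal endothelial-like cells, and Hamp and Tfrc in IDD+HTF) were picked with their values known. The ratio and interval computation was tested on simulated counts. Alternatives were tried for cell limits, clustering, scaling (edgeR 4.0.16 TMM and DESeq2 1.42.0 size factors on class sums), carried RNA and the rule of size.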

Additional observations from a re-analysis of the deposited data

Results flagged for a closer look

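Results were picked out where a gene was at least 1.5-fold higher in 1 class and at least 1.5-fold lower in another in the same comparison, with both counting intervals apart from 1. With 1 mouse per group the difference between classes was not tested. Between IDD+HID and IDD, Cp was 1.61-fold in sinusoidal endothelial-like cells but 0.568-fold in hepatocyte-like cells and 0.651-fold in stellate-like cells. Its level in sinusoidal endothelial-like cells was under the carried level in IDD (14.1 against 19.7 CPM) and over it in IDD+HID (22.7 against 10.6 CPM), and without cluster 7 the hepatocyte value was 0.25 higher on the log2 scale. Between IDD+HID and IDD+HTF, Slc11a2 was 1.99-fold in T-like cells, from 61 and 12 UMIs, and 0.563-fold in Kupffer-like cells, from 139 and 180 UMIs.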

How the results depend on the processing

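No paired analysis was possible because each group is 1 library and all carry the same replicate number. Leaving out a library leaves only 1 comparison, again without replicates, and the depth of the IDD library (34552858 UMIs) limits every value set against it. Counts below are of pairs of a gene and a class past 1.5-fold, and the causes of the shifts were not tested beyond what each setting changes by construction. The hepatocyte-like class drops out with the largest cluster alone, which has 34 cells in IDD+HID.

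With carried RNA subtracted, 8 pairs were higher and 5 lower in IDD+HID over IDD (13 and 3 as reported), and 4 higher and 3 lower in IDD+HTF over IDD (9 and 0). The lower pairs added by subtraction had both levels at the floor of 3 counts. Their ratios follow class depth and give no direction. With no minimum of UMIs the higher and lower counts were 24 and 15 in IDD+HID over IDD and 25 and 6 in IDD+HTF over IDD. In IDD+HID over IDD+HTF they were 11 and 17 (4 and 6 as reported). With at least 20 UMIs, 6 were lower in IDD+HID over IDD, 2 lower in IDD+HTF over IDD, and 7 higher and 11 lower in IDD+HID over IDD+HTF. At 2-fold, 6 were higher and 0 lower in IDD+HID over IDD, 4 higher in IDD+HTF over IDD and 1 higher in IDD+HID over IDD+HTF. As a mean over cells, with the largest cluster alone and without hepatocyte cluster 7, 1 pair was lower in IDD+HID over IDD. With the largest cluster alone and without cluster 7, 3 were lower in IDD+HID over IDD+HTF, and with called doublets kept 7 were higher. The iron list gave 135 calls, 349 with no minimum, 64 at 2-fold and 87 with the largest cluster alone.

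Number of libraries led by the leading class: Slc11a2 had 2, and 1 as a mean over cells. Steap3 had 2, but 1 with at most 10% mitochondrial UMIs, doublets kept, carried RNA subtracted or a mean over cells, and 0 at resolution 0.5. Heph had 1, and 0 from 500 UMIs or with carried RNA subtracted. Scara5 had 1, but 2 at 10% mitochondrial UMIs and 0 at resolution 0.5.

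Of the ratios past 1.5-fold, these log2 values turned their sign. With carried RNA subtracted, IDD+HTF over IDD gave -2.08 for Slc40a1 in hepatocyte-like cells, -2.09 for Cp in sinusoidal endothelial-like cells, and -0.090 for Slc40a1 and -0.87 for Slc39a8 in stellate-like cells. In IDD+HID over IDD the stellate-like values were -0.55 and -1.13, and in IDD+HID over IDD+HTF Slc40a1 in T-like cells gave -1.35. Slc40a1 in T-like cells, with 0 UMIs in IDD, gave -2.02 in IDD+HID over IDD, with each subtracted level held at 3 counts or more. Both levels were at this floor for -2.02, -2.08, -2.09, -0.87, -1.13 and -1.35. These values follow class depth and give no direction. Among ratios short of 1.5-fold, subtraction in IDD+HID over IDD+HTF turned Slc39a8 in Kupffer-like cells to -0.47 and, in stellate-like cells, Slc39a8 to -0.26, Slc40a1 to -0.46 and Heph to -0.03, and it turned Slc39a14 (0.11) and Cp (4.46) in sinusoidal endothelial-like cells and Cp in T-like cells (1.31). Of these values after subtraction, -0.26 had both levels at the floor of 3 counts, and 4.46 and 1.31 had the IDD+HTF level there. Cp in sinusoidal endothelial-like cells (-0.06 by CPM) and Slc11a2 there in IDD+HTF over IDD (0.04) lay close to 0 and changed sign under other settings too. Without cluster 7, hepatocyte-like cells gave 0.61 for Slc39a14 and 0.25 for Cp in IDD+HID over IDD, and 0.26, 0.14 and, for Slc11a2, 0.39 in IDD+HID over IDD+HTF. There Slc40a1 gave -0.23 with TMM, -0.19 with median-of-ratios scaling and -0.057 as a mean over cells. Of the recomputed counts of pairs, list calls and libraries led, 173 kept within the limits set and 37 moved. The other recomputed values were single ratios mixed with further counts. Of these 469 kept, 72 moved and 15 ratios past 1.5-fold turned.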
